A study of Homo sapiens with 16 samples.

Results

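The genes described here are 45 genes for heat shock proteins, other chaperones and their cofactors. Their symbols are on a list of names chosen with earlier results of these data known. The genes were taken as the rows of the count table with these symbols. They are 45 of the 25370 genes in the table, and all 45 passed the filter on low counts that left 16004 genes for testing. The counts are from RNA-seq of the established human line HMC3, described as microglial, in 16 libraries, 2 for each of 8 conditions. The 8 conditions were vehicle, estradiol (E2, 0.1 nM), ketamine, 2R6R-HNK and 2S6S-HNK (400 nM each), and each of these drugs together with E2 (E2+ketamine, E2+2R6R-HNK, E2+2S6S-HNK), all for 24 h. HNK is hydroxynorketamine, and both HNK compounds are metabolites of ketamine. Before treatment with ketamine or the HNK compounds, cells were kept in medium with charcoal-stripped serum and then without serum. The study's methods do not name vehicle cells in that step. Whether the paired libraries were grown separately is not given in the sources used here, so p-values measure only the spread between these libraries. Of 10 microglia and macrophage markers, 7 (AIF1, CX3CR1, P2RY12, TMEM119, ITGAM, PTPRC and SPI1) had between 0 and 7 counts in every library and were not tested. CD68 was at 17.4 to 23.4 CPM (counts scaled to the TMM-adjusted library size), CSF1R and TREM2 had medians of 0.738 and 0.733 CPM, and the 10 markers summed to 18.8 to 25.0 CPM in each library. COL1A1, COL1A2, PDGFRB and THY1, markers of fibroblasts and pericytes, summed to 4260.1 to 6466 CPM. The defining markers of microglia were thus at or near 0 in these cells and those of mesenchymal cells were high. Markers of astrocytes, neurons and oligodendrocytes summed to 3.30 to 8.94, 1.66 to 3.30 and 2.06 to 5.38 CPM. The astrocyte sum was lowest in a vehicle library and highest in a library with 2S6S-HNK, with E2+2R6R-HNK close to it (8.76 and 8.41 CPM). ALDH1L1 alone ran from 2.71 to 8.42 CPM, while GFAP ran from 0.233 to 0.628 and AQP4 had 0 counts. Whether these levels had a part in the chaperone values was not tested.

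Chaperones bind proteins that are not yet folded or have lost their fold. HSP70 proteins hold such clients with the help of J-domain proteins, which bring clients and start ATP hydrolysis, and of nucleotide exchange factors, which release them. HSP90 then acts on a narrower set of clients, among them kinases and the receptors for steroid hormones, with cochaperones that set the pace of its cycle. Separate chaperones serve the mitochondria and the endoplasmic reticulum, and the ring-shaped TRiC complex folds actin and tubulin. Heat and other stress to proteins activate the transcription factor HSF1, which binds heat shock elements in the promoters of many cytosolic chaperone genes, while stress in the endoplasmic reticulum raises its own chaperones through the unfolded protein response.

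The promoter stretches that carry these elements are given for 12 genes, chosen after their values were seen. They cover genes that fell as counted and genes that did not, with and without the longer element. The sequences are from RefSeq on GRCh38.p14 and lie upstream of an annotated start of the gene, in some genes not the only one. Of the 45 genes, 41 matched the RefSeq table, with 61 windows of 250 bases before to 50 after a start. FKBP4, ST13, HSF1 and CRYAB did not match. Each window was searched on both strands for GAANNTTC or TTCNNGAA, the core of a heat shock element, and for a longer element in which GAANNTTC is followed directly by NNGAA. It was also searched for the endoplasmic reticulum stress element, CCAAT and CCACG with 9 bases between them. Capitals in the sequences mark these letters on either strand.

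The first 5 sequences hold the longer element and are from genes that fell after every treatment, HSP90AB1 the least: CHORDC1 (chr11:90223065-90223254, minus strand), HSP90AA1 (chr14:102087074-102087163, minus strand), HSPA8 (chr11:123062179-123062366, minus strand), HSPD1 (chr2:197500032-197500090, minus strand) and HSP90AB1 (chr6:44247766-44247855, plus strand).
CHORDC1: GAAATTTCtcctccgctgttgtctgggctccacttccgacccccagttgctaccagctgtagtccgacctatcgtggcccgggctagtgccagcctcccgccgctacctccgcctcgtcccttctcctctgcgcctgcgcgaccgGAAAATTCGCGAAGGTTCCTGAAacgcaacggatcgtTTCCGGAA
HSP90AA1: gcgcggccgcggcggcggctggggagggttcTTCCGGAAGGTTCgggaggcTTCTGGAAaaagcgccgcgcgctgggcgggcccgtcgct
HSPA8: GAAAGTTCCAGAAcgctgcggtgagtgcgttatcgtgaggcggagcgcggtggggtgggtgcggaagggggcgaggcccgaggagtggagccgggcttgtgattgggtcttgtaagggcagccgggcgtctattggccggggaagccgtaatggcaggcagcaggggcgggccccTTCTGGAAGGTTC
HSPD1: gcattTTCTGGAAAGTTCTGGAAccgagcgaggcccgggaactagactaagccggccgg
HSP90AB1: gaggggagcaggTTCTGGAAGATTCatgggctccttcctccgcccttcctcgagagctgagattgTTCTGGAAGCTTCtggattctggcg
The next 2 also hold the longer element, in SERPINH1 (chr11:75562139-75562227, plus strand), which was higher in 5 comparisons as counted, and DNAJB6 (chr7:157336835-157336923, plus strand), which fell with 6 treatments, at most to -0.42 on the log2 scale.
SERPINH1: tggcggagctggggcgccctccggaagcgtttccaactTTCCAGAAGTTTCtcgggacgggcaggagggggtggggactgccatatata
DNAJB6: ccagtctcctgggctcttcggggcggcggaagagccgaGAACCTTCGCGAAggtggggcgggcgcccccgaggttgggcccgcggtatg
The pair after these holds only the core and is from stress-inducible genes that moved little as counted, although both were lower in all 7 comparisons once corrected for exon GC content and length: HSPA1A (chr6:31815396-31815485, plus strand) and DNAJB1 (chr19:14518411-14518500, minus strand).
HSPA1A: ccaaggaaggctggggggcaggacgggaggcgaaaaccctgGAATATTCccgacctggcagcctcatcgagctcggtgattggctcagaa
DNAJB1: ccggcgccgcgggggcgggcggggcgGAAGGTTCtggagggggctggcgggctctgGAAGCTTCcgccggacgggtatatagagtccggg
The last 3 are from genes of the endoplasmic reticulum. As counted, the first 2 fell after every treatment and CALR did not. Once corrected for exon GC content and length, CALR was lower in each comparison. They are HSPA5 (chr9:125241356-125241444, minus strand), HSP90B1 (chr12:103930216-103930339, plus strand) and CALR (chr19:12938359-12938437, plus strand).
HSPA5: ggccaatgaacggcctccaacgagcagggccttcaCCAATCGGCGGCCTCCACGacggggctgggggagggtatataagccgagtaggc
HSP90B1: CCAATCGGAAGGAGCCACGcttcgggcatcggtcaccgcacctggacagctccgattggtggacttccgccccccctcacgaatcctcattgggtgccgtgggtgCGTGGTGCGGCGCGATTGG
CALR: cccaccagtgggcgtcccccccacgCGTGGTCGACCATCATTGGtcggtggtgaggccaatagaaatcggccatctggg

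GAANNTTC or TTCNNGAA stood in 34.43% of the 61 windows, covering 20 of the 41 genes, against 13.49% of all 35116 windows in the table. The longer heat shock element stood in 8 of the 61 windows (13.11%), against 0.49% of all windows. The 8 genes were CHORDC1, HSP90AA1, HSP90AB1, HSPA8, HSPD1, DNAJA1, DNAJB6 and SERPINH1. CHORDC1 held 3 overlapping copies of the longer element. HSP90AA1, HSP90AB1, HSPD1 and SERPINH1 each had another start or starts whose windows lacked the core. The windows of HSPH1 and HSPA4, which also fell after every treatment, held neither the core nor the longer element. The endoplasmic reticulum stress element stood in 9.84% of the 61 windows, those of CANX, HSPA5, HSP90B1 and CALR, against 0.08% of all windows. A match of letters is a description of the window and shows neither binding nor regulation.

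The libraries held 55300614 to 81646165 counts each. The quasi-likelihood fit of edgeR across all 16 libraries found a common coefficient of variation of 2.81%, so that differences of a few percent between conditions could pass the test. In each comparison with vehicle, between 59.3% and 71.7% of the 16004 genes passed an adjusted p of 0.05. All 7 comparisons share the same 2 vehicle libraries, and what set these 2 libraries apart, the treatment or anything else, enters all 7. Across the 16004 genes, 26.0% had all 14 treated libraries below both vehicle libraries and 17.8% had all 14 above. Among the 45 chaperone genes, 30 (66.7%) had all 14 treated libraries below both vehicle libraries and 3 (CRYAB, PDIA4 and HSF1) had all 14 above. In bulk RNA, a change in every cell and a change in the share of cells cannot be told apart.

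Most chaperone genes were lower in treated than in vehicle cells, in each of the 7 comparisons. With E2, 33 of 45 were lower and 7 higher (32.7% and 29.9% of all genes tested). With ketamine, 37 were lower and 3 higher (32.5% and 26.8% of all genes). With 2R6R-HNK, 32 were lower and 9 higher (34.9% and 31.7%), and with 2S6S-HNK 37 were lower and 6 higher (35.8% and 32.1%). The counts were 31 and 9 with E2+ketamine (37.4% and 34.3% of all genes), 36 and 6 with E2+2R6R-HNK (36.3% and 33.4%), and 39 and 3 with E2+2S6S-HNK (35.7% and 24%). The median log2 fold change of the 45 genes lay between -0.76 with E2+ketamine and -0.41 with ketamine, while that of all genes tested lay between -0.064 and -0.003. Between 2 and 5 chaperone genes per comparison did not pass. Since the 45 genes were chosen with earlier results of these data known, their shares are not those of chaperone genes in general. Of 89 other chaperone genes tested, counted further below, 43.8% to 52.8% were lower and 19.1% to 37.1% higher.

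**Figure D1:**
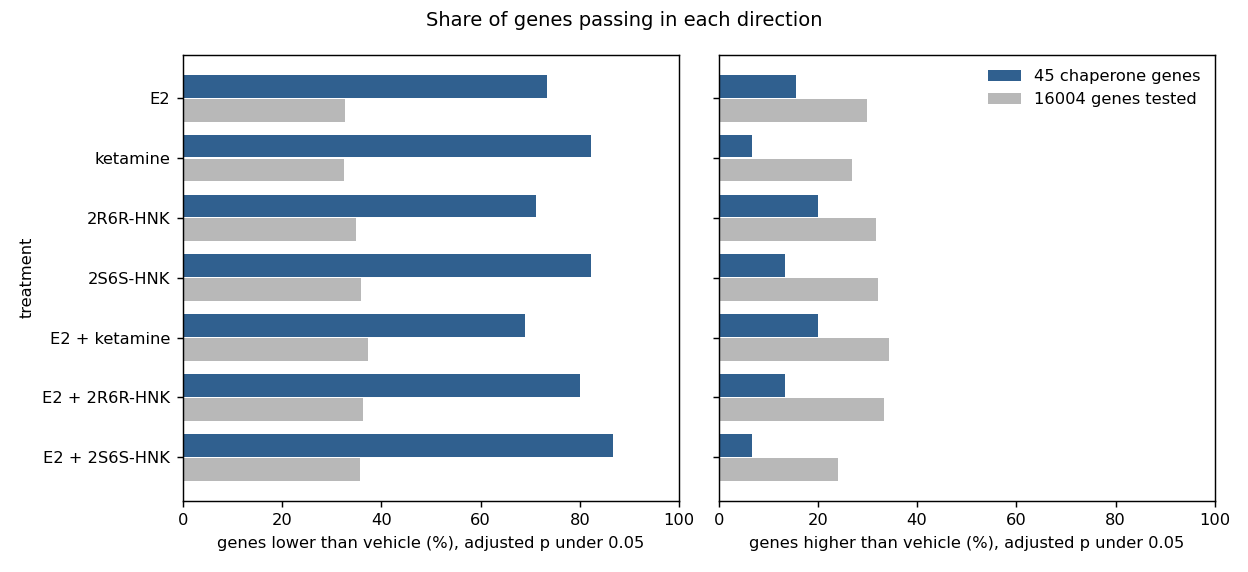
Share of genes lower (left) and higher (right) than vehicle at an adjusted p under 0.05, in percent, for each treatment, for the 45 chaperone genes and for all 16004 genes tested. The chaperone bars for lower genes reach 68.9% to 86.7%, while those for all genes stay between 32.5% and 37.4%. The 45 genes were chosen with earlier results of these data known.

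The study's own limit adds a log2 fold change of at least 1. At that limit all chaperone genes that passed were lower. They numbered 2 with E2 (lower in 0.644% of all genes), 3 with ketamine (0.981%), 2 with 2R6R-HNK (1.92%) and 7 with 2S6S-HNK (3.84%). They numbered 8 with E2+ketamine (6.56%), 13 with E2+2R6R-HNK (5.41%) and 2 with E2+2S6S-HNK (1.67%). With each library's trend with exon GC content and length removed (the GC correction), these counts were 0, 2, 0, 2, 1, 4 and 0 in the same order, against 0.325%, 0.494%, 0.537%, 1.51%, 0.837%, 2.07% and 1.52% of all genes. As counted, CHORDC1 was among them in all 7 comparisons and HSP90AA1 in all but E2+2S6S-HNK, where it fell short of the limit at -0.99. After the correction CHORDC1 lay beyond 1 only with ketamine, 2S6S-HNK and E2+2R6R-HNK.

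**Figure D2:**
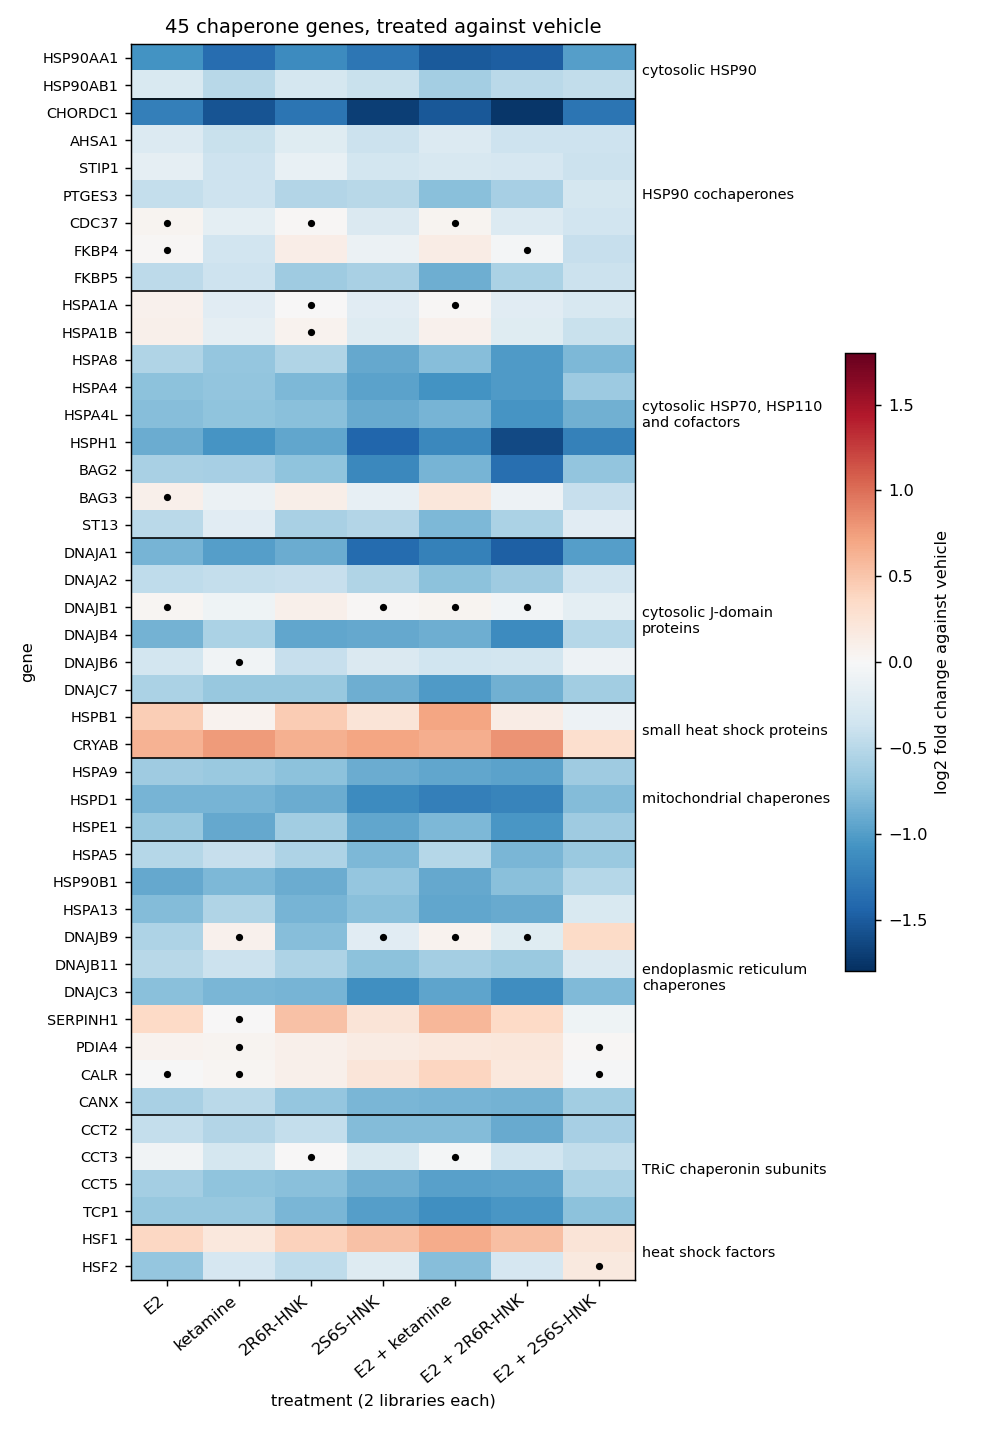
Log2 fold change of each of the 45 genes (rows, grouped by role) against vehicle in the 7 treatments (columns), with blue for lower and red for higher, and a black dot where the adjusted p was 0.05 or above. HSP90AA1, CHORDC1, HSPH1 and DNAJA1 hold the darkest blue rows, and the red rows are few: of these, those of HSPB1, HSF1, PDIA4, SERPINH1 and CALR turn negative or shrink after the GC correction, and CRYAB stays positive.

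In the vehicle cells, levels per kilobase of the canonical transcript differed widely among the 45 genes. HSPA8, the constitutive cytosolic HSP70, was highest at 1031 ± 26.1 CPM per kb (SD, n = 2), followed by HSP90AB1 at 872 ± 13.8, HSPB1 at 668 ± 22.2, CALR at 655 ± 11.2 and HSP90AA1 at 533 ± 1.96. HSPB1 and CALR did not differ beyond their spread. HSPD1, HSP90B1 and HSPA5 followed at 261 ± 1.28, 252 ± 3.52 and 243 ± 3.66 CPM per kb. The inducible HSPA1A and HSPA1B were at 114 ± 0.535 and 107 ± 5.21. HSPA4L was lowest at 1.09 ± 0.0357, below DNAJB9 at 3.32 ± 0.222 and HSF2 at 4.38 ± 0.0548 CPM per kb.

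Both genes of cytosolic HSP90 fell in each of the 7 comparisons, and the inducible form fell much further. HSP90AA1, the stress-inducible HSP90, was at 1717 and 1726 CPM in vehicle, 829 and 812 with E2, 662 and 668 with ketamine, 787 and 781 with 2R6R-HNK, 708 and 688 with 2S6S-HNK, 614 and 595 with E2+ketamine, 606 and 623 with E2+2R6R-HNK and 853 and 881 with E2+2S6S-HNK. The vehicle libraries were far above the rest, and no treated library exceeded 881 CPM. The log2 fold changes of HSP90AA1 were -1.07 with E2, -1.37 with ketamine, -1.14 with 2R6R-HNK, -1.30 with 2S6S-HNK, -1.51 with E2+ketamine, -1.49 with E2+2R6R-HNK and -0.99 with E2+2S6S-HNK, with an SE of 0.022 and a largest edgeR adjusted p of 2.5e-37. HSP90AB1, the constitutive HSP90, was at 2203 and 2253 CPM in vehicle, 1846 and 1827 with E2, 1570.4 and 1574 with ketamine, 1780.4 and 1782 with 2R6R-HNK, 1682 and 1693 with 2S6S-HNK, 1462 and 1453 with E2+ketamine, 1576 and 1593 with E2+2R6R-HNK and 1632 and 1651 with E2+2S6S-HNK. Every treated library was again below both vehicle libraries, by smaller margins. Its log2 fold changes ran from -0.61 with E2+ketamine to -0.28 with E2 (SE 0.018, largest edgeR adjusted p 7.76e-19).

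The counts of the 2 HSP90 genes can be set against each other within a library, which needs no scaling between libraries. HSP90AA1 had 0.779 and 0.766 counts for each count of HSP90AB1 in the vehicle libraries. In the 14 treated libraries the ratio lay between 0.384 and 0.533, with its highest values, 0.522 and 0.533, with E2+2S6S-HNK. The ratio shows that the 2 genes changed unequally as counted, not that one stayed the same. It is not corrected for a trend with exon GC content, which is 45.5% in HSP90AA1 and 49.1% in HSP90AB1.

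Of 7 HSP90 cochaperones, 5 to 7 were lower in each comparison, and FKBP4 was the only one higher, with 2R6R-HNK and E2+ketamine, a direction that turned after the GC correction. CHORDC1, a zinc-binding cochaperone of HSP90, had the furthest fall of all 45 genes as counted. It was at 60.2 and 60.7 CPM in vehicle, 26.4 and 24.9 with E2, 21.1 and 19.9 with ketamine, 24.8 and 23.9 with 2R6R-HNK, 19.4 and 18.1 with 2S6S-HNK, 21.6 and 20.2 with E2+ketamine, 18 and 17.9 with E2+2R6R-HNK and 23.6 and 25.3 with E2+2S6S-HNK. All treated libraries lay at or below 26.4 CPM, well apart from vehicle. Log2 fold changes of CHORDC1 were -1.24 with E2, -1.56 with ketamine, -1.31 with 2R6R-HNK, -1.69 with 2S6S-HNK, -1.53 with E2+ketamine, -1.75 with E2+2R6R-HNK and -1.31 with E2+2S6S-HNK (SE 0.054 to 0.057, largest edgeR adjusted p 5.48e-25). STIP1, which links HSP70 to HSP90 and had the highest mean CPM of the 7 over all libraries, was at 399 and 409 CPM in vehicle, 362 and 361 with E2, 310.4 and 312 with ketamine, 363 and 371 with 2R6R-HNK, 322 and 321 with 2S6S-HNK, 328 and 331 with E2+ketamine, 328 and 325 with E2+2R6R-HNK and 309.6 and 307 with E2+2S6S-HNK. Its treated libraries were all below vehicle, and its log2 fold changes were small, from -0.39 with E2+2S6S-HNK to -0.14 with 2R6R-HNK (largest edgeR adjusted p 9.77e-07).

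The cochaperones of the steroid receptor complexes moved apart from each other. PTGES3, the p23 cochaperone that closes the HSP90 dimer, fell in each comparison, with log2 fold changes from -0.31 with E2+2S6S-HNK to -0.75 with E2+ketamine. FKBP5, an immunophilin and a well-known target of the glucocorticoid receptor, fell, with log2 fold changes from -0.37 with ketamine to -0.88 with E2+ketamine. FKBP4, its relative in the same complexes, was at -0.35 ± 0.026 (SE) with ketamine (edgeR adjusted p = 1.8e-16) and at 0.13 ± 0.026 (SE) with E2+ketamine (edgeR adjusted p = 1.39e-05), and it did not pass with E2 or E2+2R6R-HNK. Its higher values with 2R6R-HNK and E2+ketamine turned to -0.089 and -0.14 after the GC correction described later. AHSA1, which stimulates the HSP90 ATPase, fell in each comparison, between -0.40 and -0.21. CDC37, which brings kinases to HSP90, was lower in 4 comparisons, with log2 fold changes between -0.35 and -0.17, and did not pass with E2, 2R6R-HNK or E2+ketamine. After the GC correction, CDC37 was lower in all 7.

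Of the 9 genes for cytosolic HSP70, HSP110 and their cofactors, 6 to 9 were lower in each comparison, and HSPA8, HSPA4, HSPA4L, HSPH1, BAG2 and ST13 were lower in all 7 as counted, although after the GC correction HSPA4L, BAG2 and ST13 did not pass in some comparisons and ST13 was higher with ketamine and E2+2S6S-HNK. HSPA1A, HSPA1B and BAG3 were lower in 4 comparisons each and higher in 1 or 2 as counted. HSPA8 was at 2293 and 2376 CPM in vehicle, 1604 and 1606 with E2, 1430.4 and 1438 with ketamine, 1608 and 1599.7 with 2R6R-HNK, 1231 and 1245 with 2S6S-HNK, 1398 and 1346 with E2+ketamine, 1136 and 1165 with E2+2R6R-HNK and 1334 and 1341 with E2+2S6S-HNK. The treated libraries lay between 1136 and 1608 CPM, below vehicle throughout. Its log2 fold changes were -0.54 with E2, -0.70 with ketamine, -0.54 with 2R6R-HNK, -0.92 with 2S6S-HNK, -0.77 with E2+ketamine, -1.02 with E2+2R6R-HNK and -0.80 with E2+2S6S-HNK (SE 0.020, largest edgeR adjusted p 3.76e-28). HSPA1A and HSPA1B, the stress-inducible HSP70 genes, gave log2 fold changes between -0.40 and 0.086. Both passed as lower with ketamine, 2S6S-HNK, E2+2R6R-HNK and E2+2S6S-HNK, and as higher with E2, where HSPA1A was at 0.079 ± 0.027 (SE) (edgeR adjusted p = 0.0102). HSPA1B was also higher with E2+ketamine, at 0.074 ± 0.032 (SE) (edgeR adjusted p = 0.0347). Once corrected for GC content, both genes were lower in all 7 comparisons. HSPA1A and HSPA1B lie close to each other (chr6:31783320-31785723 and chr6:31795515-31798031 on GRCh37) and share 69.5% and 72.8% of their 100-base words with other genes, so how uniquely mapped pairs split between them is uncertain. HSPA8 had 8.4 and 8.65 counts for each count of HSPA1A in the vehicle libraries and 4.73 to 6.19 in the treated ones. The exon GC content of HSPA8 is 49.3% and that of HSPA1A 59.8%, and this ratio is not corrected for a trend with GC content.

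Relatives of HSP110 act as exchange factors that release clients from HSP70. HSPH1, one of them, was at 88 and 89.1 CPM in vehicle, 46.2 and 49.1 with E2, 43.1 and 41.7 with ketamine, 45.9 and 46.8 with 2R6R-HNK, 32.2 and 33.6 with 2S6S-HNK, 41.8 and 37.6 with E2+ketamine, 28.1 and 29.4 with E2+2R6R-HNK and 38.1 and 38 with E2+2S6S-HNK. Vehicle was the highest by far, and the libraries with E2+2R6R-HNK were the lowest. The log2 fold changes of HSPH1 were -0.89 with E2, -1.06 with ketamine, -0.94 with 2R6R-HNK, -1.43 with 2S6S-HNK, -1.16 with E2+ketamine, -1.62 with E2+2R6R-HNK and -1.22 with E2+2S6S-HNK (SE 0.045 to 0.048, largest edgeR adjusted p 1.18e-22). HSPA4, the second of this family, was at 261 and 266 CPM in vehicle, 158 and 157 with E2, 162 and 161 with ketamine, 150.5 and 152 with 2R6R-HNK, 135 and 135 with 2S6S-HNK, 127 and 125 with E2+ketamine, 127 and 134 with E2+2R6R-HNK and 166 and 168 with E2+2S6S-HNK. It fell, with log2 fold changes from -0.66 with E2+2S6S-HNK to -1.07 with E2+ketamine (largest edgeR adjusted p 1.11e-25), with no overlap with vehicle. HSPA4L, the third and by far the least abundant, was at 11.2 and 11.8 CPM in vehicle, 7.11 and 6.46 with E2, 7.51 and 6.36 with ketamine, 6.58 and 7.08 with 2R6R-HNK, 6.42 and 5.85 with 2S6S-HNK, 6.06 and 6.77 with E2+ketamine, 5.18 and 5.81 with E2+2R6R-HNK and 6.44 and 6.19 with E2+2S6S-HNK. Levels fell, with log2 fold changes from -0.73 with ketamine to -1.07 with E2+2R6R-HNK, with SE of 0.097 to 0.10 (largest edgeR adjusted p 5.62e-09), and after the GC correction it no longer passed with 2R6R-HNK or E2+ketamine.

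Among the BAG cofactors, as counted, BAG2 fell in each comparison and BAG3 moved in both directions by smaller amounts. BAG2, an exchange factor that also inhibits the ubiquitin ligase CHIP, was at 43.5 and 42.3 CPM in vehicle, 29 and 28.2 with E2, 28.2 and 28.4 with ketamine, 25.5 and 26.2 with 2R6R-HNK, 19 and 19.3 with 2S6S-HNK, 24.5 and 23.6 with E2+ketamine, 16.7 and 16.8 with E2+2R6R-HNK and 26.2 and 26.1 with E2+2S6S-HNK. The lowest libraries were those with E2+2R6R-HNK, then those with 2S6S-HNK. Log2 fold changes of this gene were -0.58 with E2, -0.60 with ketamine, -0.73 with 2R6R-HNK, -1.16 with 2S6S-HNK, -0.83 with E2+ketamine, -1.36 with E2+2R6R-HNK and -0.71 with E2+2S6S-HNK (SE 0.051 to 0.055, largest edgeR adjusted p 5.14e-14). BAG2 shares 2842 bp of exon with RAB23 on the other strand, and since the strand setting of the counting is not given in the sources used here, reads of the 2 genes cannot be told apart there. With the GC correction, BAG2 did not pass with E2, 2R6R-HNK or E2+ketamine. BAG3, which pairs HSP70 with autophagy and small heat shock proteins, ran from -0.41 with E2+2S6S-HNK to 0.21 with E2+ketamine, and the latter value turned to -0.30 after the GC correction, when BAG3 was lower in all 7 comparisons. ST13, which stabilizes HSP70 in its client-bound state, was lower in all 7, from -0.80 to -0.20, but after the GC correction it was lower only with E2+ketamine and higher with ketamine and E2+2S6S-HNK.

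Of 6 cytosolic J-domain proteins, 5 were lower in each of 6 comparisons and all 6 with E2+2S6S-HNK. DNAJA1, a partner of HSP70 in the cytosol, was at 224 and 230.0 CPM in vehicle, 127 and 127 with E2, 114 and 114 with ketamine, 125 and 121 with 2R6R-HNK, 88.2 and 85.3 with 2S6S-HNK, 98.9 and 96.7 with E2+ketamine, 83.2 and 81.3 with E2+2R6R-HNK and 114 and 115 with E2+2S6S-HNK. The treated libraries held 81.3 to 127 CPM and did not overlap with vehicle. Its log2 fold changes were -0.84 with E2, -0.99 with ketamine, -0.89 with 2R6R-HNK, -1.39 with 2S6S-HNK, -1.22 with E2+ketamine, -1.47 with E2+2R6R-HNK and -0.98 with E2+2S6S-HNK (SE 0.030 to 0.032, largest edgeR adjusted p 3.07e-28). DNAJB4 was at 24.4 and 23.8 CPM in vehicle, 13.5 and 13.4 with E2, 15.7 and 16.9 with ketamine, 13 and 12.2 with 2R6R-HNK, 12.5 and 13 with 2S6S-HNK, 13.8 and 12.4 with E2+ketamine, 10.7 and 11.4 with E2+2R6R-HNK and 16.2 and 17.7 with E2+2S6S-HNK. It fell, with log2 fold changes from -0.51 with E2+2S6S-HNK to -1.13 with E2+2R6R-HNK (SE 0.068 to 0.073, largest edgeR adjusted p 7.3e-09), with all treated libraries below vehicle. After the GC correction it did not pass with ketamine or E2+ketamine.

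DNAJC7, which binds both HSP70 and HSP90, was at 91.5 and 87.6 CPM in vehicle, 62.5 and 58.4 with E2, 56.4 and 55.3 with ketamine, 55.3 and 56.2 with 2R6R-HNK, 47.1 and 50 with 2S6S-HNK, 45.9 and 42.8 with E2+ketamine, 50.1 and 47.9 with E2+2R6R-HNK and 55.9 and 59.7 with E2+2S6S-HNK. Levels fell, with log2 fold changes from -0.57 with E2 to -1.01 with E2+ketamine (largest edgeR adjusted p 2.95e-16), with no overlap. DNAJB6, known for holding back aggregation of polyglutamine proteins and with the highest mean CPM of the 6 over all libraries, was at 169.8 and 169 CPM in vehicle, 138 and 132 with E2, 161 and 163 with ketamine, 126 and 128 with 2R6R-HNK, 142 and 141 with 2S6S-HNK, 136 and 127 with E2+ketamine, 136 and 133 with E2+2R6R-HNK and 159 and 159 with E2+2S6S-HNK. It fell with 6 treatments, between -0.42 and -0.089, and was at -0.067 ± 0.030 (SE) with ketamine (edgeR adjusted p = 0.0531), although all treated libraries were below vehicle. The ketamine value passed (-0.067) when either 2S6S-HNK library or either E2+ketamine library was left out (edgeR adjusted p 0.0395 to 0.0448). Its value with E2+2S6S-HNK did not pass without vehicle replicate 1 (-0.087, edgeR adjusted p = 0.0517) and was 0.016 with upper-quartile normalization. DNAJA2 fell in each comparison, from -0.74 to -0.34, and after the GC correction it was lower in 3 of the 7 and higher in 1. DNAJB1, the stress-inducible partner of HSPA1A, stayed between -0.18 and 0.089 and passed in 3 comparisons, with only E2+2S6S-HNK beyond 0.1 in size (edgeR adjusted p = 5.77e-06). Once corrected for GC content, DNAJB1 was lower in all 7, at -0.22 to -0.46.

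**Figure D3:**
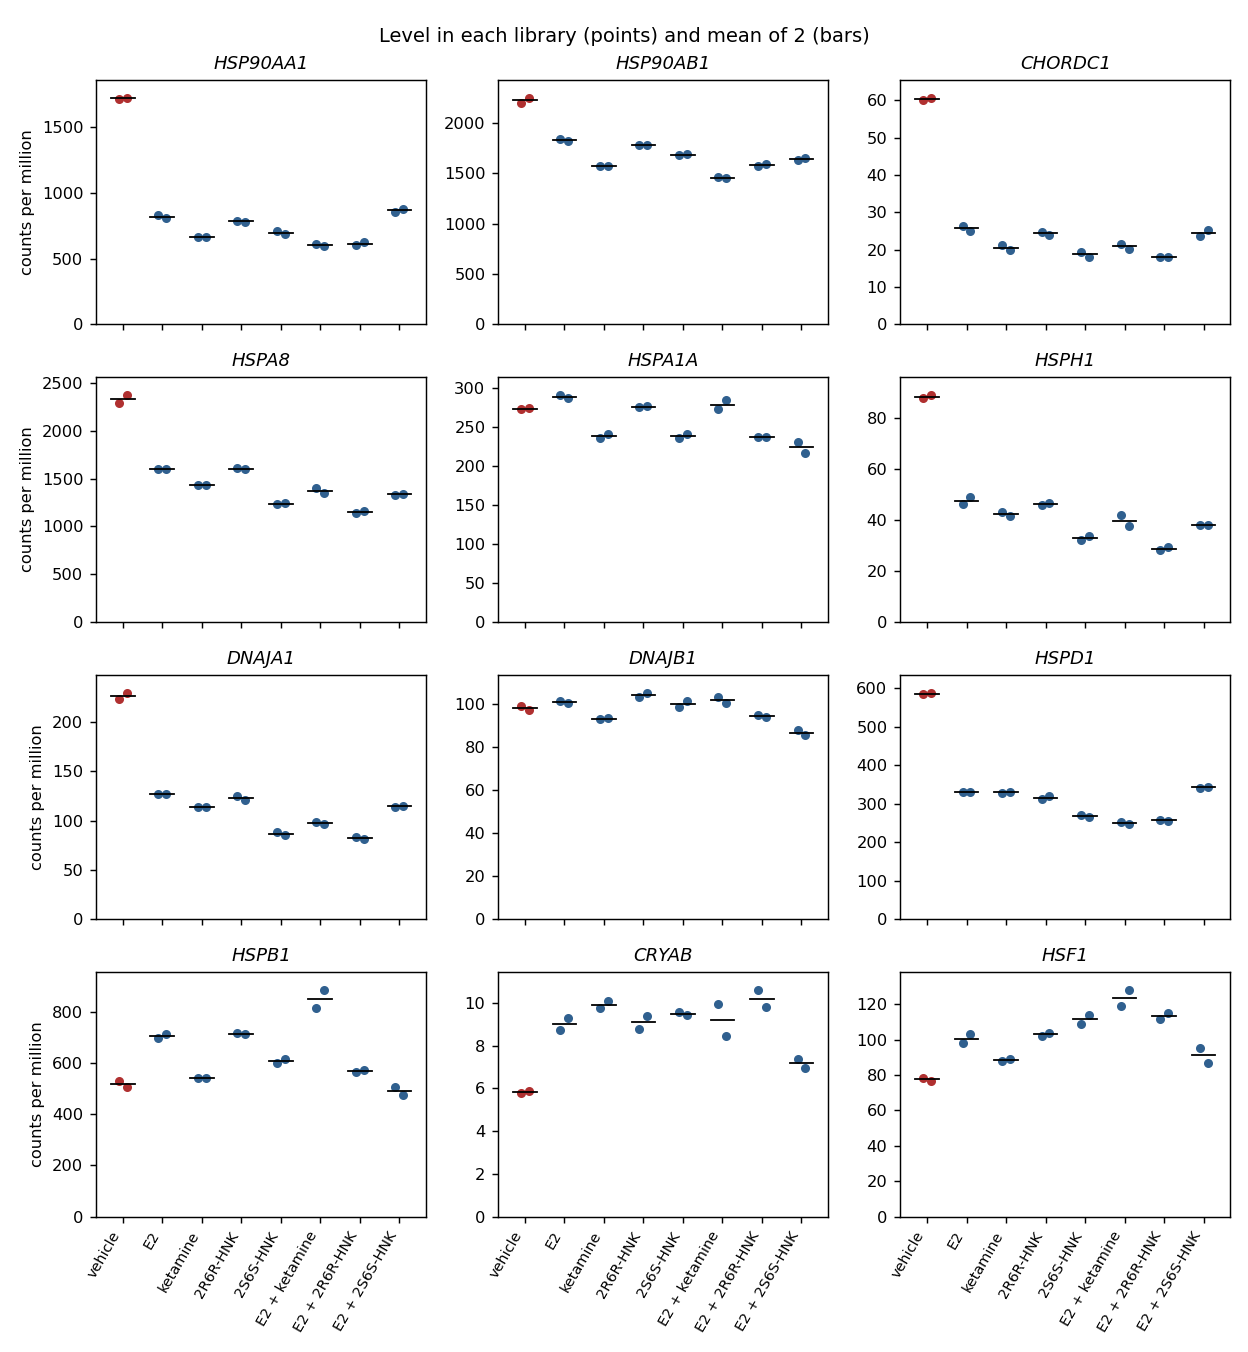
CPM (linear axis from 0) of 12 of the genes in each library, with points for the 2 libraries of a condition, bars for their mean, red for vehicle and blue for treated cells. In HSP90AA1, CHORDC1, HSPA8, HSPH1, DNAJA1 and HSPD1 every treated point lies below vehicle, in CRYAB and HSF1 every one lies above (for HSF1 the fold change turns negative after the GC correction), and in HSPA1A, DNAJB1 and HSPB1 the treated points lie on both sides of vehicle.

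The small heat shock proteins, which hold unfolded proteins without ATP, were higher than vehicle in most conditions, a direction that only CRYAB kept after the GC correction. CRYAB (alpha B-crystallin) was at 5.79 and 5.87 CPM in vehicle, 8.75 and 9.28 with E2, 9.75 and 10.1 with ketamine, 8.80 and 9.39 with 2R6R-HNK, 9.56 and 9.43 with 2S6S-HNK, 9.96 and 8.44 with E2+ketamine, 10.6 and 9.82 with E2+2R6R-HNK and 7.39 and 6.97 with E2+2S6S-HNK. All 14 treated libraries were above vehicle, at low CPM, with E2+2S6S-HNK the closest to it. The log2 fold changes of CRYAB were 0.63 with E2, 0.77 with ketamine, 0.64 with 2R6R-HNK, 0.70 with 2S6S-HNK, 0.66 with E2+ketamine, 0.81 with E2+2R6R-HNK and 0.30 with E2+2S6S-HNK (SE 0.093 to 0.098, largest edgeR adjusted p 0.00667). The rise kept its sign after the GC correction, between 0.28 and 0.74, and with E2+2S6S-HNK it did not pass without E2+2S6S-HNK replicate 1 (0.26, edgeR adjusted p = 0.0722). CRYAB shares 598 bp of exon with HSPB2 on the other strand.

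HSPB1 (HSP27) was at 531 and 507 CPM in vehicle, 698 and 714 with E2, 540.3 and 543 with ketamine, 715 and 712 with 2R6R-HNK, 599.6 and 615 with 2S6S-HNK, 815 and 884 with E2+ketamine, 563 and 572 with E2+2R6R-HNK and 505 and 474 with E2+2S6S-HNK. It was highest with E2+ketamine, and the libraries with E2+2S6S-HNK were the only ones below vehicle. Log2 fold changes of this gene were 0.44 with E2, 0.062 with ketamine, 0.46 with 2R6R-HNK, 0.23 with 2S6S-HNK, 0.71 with E2+ketamine, 0.13 with E2+2R6R-HNK and -0.085 with E2+2S6S-HNK (SE 0.027). It passed as higher in 6 comparisons and as lower with E2+2S6S-HNK (edgeR adjusted p = 0.00649). The value with ketamine (edgeR adjusted p = 0.0459) was lost when any of 8 libraries was left out, with values from 0.028 without vehicle replicate 2 to 0.066. The value with E2+2S6S-HNK was lost without E2+2S6S-HNK replicate 2 (-0.04) or vehicle replicate 1 (-0.051), and was 0.020 with upper-quartile normalization. With the GC correction, the values lay between -0.40 and 0.021, so that no rise of HSPB1 passed.

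All 3 mitochondrial chaperones fell in each comparison. HSPD1 (HSP60), which forms the folding chamber of the mitochondrial matrix, was at 584 and 588 CPM in vehicle, 329.5 and 329.6 with E2, 328 and 331 with ketamine, 311 and 319.6 with 2R6R-HNK, 270.2 and 264 with 2S6S-HNK, 253 and 246 with E2+ketamine, 257 and 256 with E2+2R6R-HNK and 340.0 and 344 with E2+2S6S-HNK. The treated libraries fell into a range of 246 to 344 CPM, far below vehicle. Its log2 fold changes were -0.83 with E2, -0.83 with ketamine, -0.89 with 2R6R-HNK, -1.13 with 2S6S-HNK, -1.23 with E2+ketamine, -1.19 with E2+2R6R-HNK and -0.78 with E2+2S6S-HNK (SE 0.024, largest edgeR adjusted p 1.78e-31). HSPE1 (HSP10), the lid of that chamber, was at 27.5 and 27 CPM in vehicle, 17.6 and 16.4 with E2, 13.5 and 15.2 with ketamine, 16.9 and 18.5 with 2R6R-HNK, 14.9 and 13.6 with 2S6S-HNK, 15.3 and 15.9 with E2+ketamine, 13.4 and 12.9 with E2+2R6R-HNK and 16.1 and 19.1 with E2+2S6S-HNK. It fell, with log2 fold changes from -0.63 with 2R6R-HNK to -1.05 with E2+2R6R-HNK (SE 0.071 to 0.075, largest edgeR adjusted p 7.45e-11), with no treated library near vehicle. HSPD1 (chr2:198351308-198381461, minus strand) and HSPE1 (chr2:198364864-198368173, plus strand) are read from opposite strands of one region of GRCh37 and share 135 bp of exon. HSPA9 (mortalin), the HSP70 of mitochondria, fell, with log2 fold changes from -0.63 with E2 to -0.97 with E2+2R6R-HNK (largest edgeR adjusted p 5.22e-25). After the GC correction all 3 remained lower in each comparison.

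As counted, the 10 chaperones of the endoplasmic reticulum split, with 6 or 7 lower in each comparison and up to 3 higher. Of all genes tested, 32.5% to 37.4% were lower and 24% to 34.3% higher. With the GC correction several of these directions turned or no longer passed, as given by gene below. HSP90B1 (GRP94), the HSP90 of this compartment, was at 693 and 707 CPM in vehicle, 371 and 369 with E2, 406 and 395 with ketamine, 380.5 and 377 with 2R6R-HNK, 432 and 428 with 2S6S-HNK, 378 and 359.9 with E2+ketamine, 414 and 418 with E2+2R6R-HNK and 486 and 495 with E2+2S6S-HNK. All treated libraries were below vehicle, those with E2+2S6S-HNK the least. Log2 fold changes of this gene were -0.92 with E2, -0.81 with ketamine, -0.89 with 2R6R-HNK, -0.70 with 2S6S-HNK, -0.93 with E2+ketamine, -0.75 with E2+2R6R-HNK and -0.51 with E2+2S6S-HNK (SE 0.024, largest edgeR adjusted p 2.05e-24). DNAJC3, a J-domain cochaperone of HSPA5 that also inhibits the kinase PERK, was at 36.8 and 36.6 CPM in vehicle, 21.5 and 22 with E2, 20 and 21.6 with ketamine, 20.7 and 20.4 with 2R6R-HNK, 16.8 and 17.4 with 2S6S-HNK, 19.6 and 18.3 with E2+ketamine, 17.5 and 16.4 with E2+2R6R-HNK and 19.9 and 22.4 with E2+2S6S-HNK. Levels fell, with log2 fold changes from -0.76 with E2 to -1.11 with E2+2R6R-HNK (SE 0.060 to 0.063, largest edgeR adjusted p 2.04e-15), without overlap.

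HSPA13, an HSP70 relative of microsomes, was at 91.1 and 92.3 CPM in vehicle, 53.1 and 54.1 with E2, 61.2 and 65.4 with ketamine, 50.4 and 52.7 with 2R6R-HNK, 55 and 54.1 with 2S6S-HNK, 49.2 and 46.9 with E2+ketamine, 46.7 and 50.7 with E2+2R6R-HNK and 72.8 and 79.4 with E2+2S6S-HNK. It fell in each comparison, least with E2+2S6S-HNK at -0.27 and furthest with E2+ketamine at -0.93 (largest edgeR adjusted p 3.13e-07), and the value with E2+2S6S-HNK turned to 0.03 after the GC correction. HSPA5 (BiP), the HSP70 of this compartment, fell, with log2 fold changes from -0.41 with ketamine to -0.83 with E2+2R6R-HNK, and CANX (calnexin), which folds glycoproteins, from -0.49 with ketamine to -0.86 with E2+2R6R-HNK. DNAJB11, another J-domain partner of HSPA5, fell, with log2 fold changes from -0.27 with E2+2S6S-HNK to -0.73 with 2S6S-HNK, and after the GC correction it was lower in 2 comparisons and higher in 1.

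DNAJB9, a J-domain protein that holds the stress sensor IRE1 inactive, was at 7.62 and 8.37 CPM in vehicle, 5.25 and 5.63 with E2, 8.15 and 8.80 with ketamine, 5.18 and 4.16 with 2R6R-HNK, 6.68 and 7.16 with 2S6S-HNK, 7.52 and 9.13 with E2+ketamine, 6.85 and 6.94 with E2+2R6R-HNK and 9.79 and 10.6 with E2+2S6S-HNK. Treated libraries lay on both sides of vehicle, lowest with 2R6R-HNK and highest with E2+2S6S-HNK. It fell with E2 (-0.56 ± 0.11 (SE), edgeR adjusted p = 1.52e-05) and 2R6R-HNK (-0.76 ± 0.11 (SE), edgeR adjusted p = 2.56e-08) and rose with E2+2S6S-HNK (0.35 ± 0.10 (SE), edgeR adjusted p = 0.00255). The rise did not pass without vehicle replicate 1 (0.28, edgeR adjusted p = 0.0544), while E2+2R6R-HNK passed without that library (-0.28, edgeR adjusted p = 0.0491). Once corrected for GC content, the falls did not pass, and the values were positive except with 2R6R-HNK.

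CALR, SERPINH1 and PDIA4 were mostly higher as counted, a direction that turned or was lost in most comparisons after the GC correction. CALR (calreticulin), the soluble partner of CANX, was at 1260.2 and 1230.2 CPM in vehicle, 1235 and 1233 with E2, 1282 and 1263 with ketamine, 1325 and 1330.3 with 2R6R-HNK, 1414 and 1487 with 2S6S-HNK, 1636 and 1623 with E2+ketamine, 1419.6 and 1421 with E2+2R6R-HNK and 1228 and 1216 with E2+2S6S-HNK. It rose with 2R6R-HNK, 2S6S-HNK, E2+ketamine and E2+2R6R-HNK, with log2 fold changes from 0.093 to 0.39, while its libraries with E2 lay between those of vehicle and those with E2+2S6S-HNK just below them. With the GC correction, it was lower in all 7 comparisons, with log2 fold changes of -0.077 to -0.28. SERPINH1 (HSP47), which folds collagen, rose in 5 comparisons, by up to 0.59 with E2+ketamine, and fell with E2+2S6S-HNK, at -0.083, a value that was 0.022 with upper-quartile normalization. After the correction it was higher only with 2R6R-HNK and E2+ketamine. PDIA4, a disulfide isomerase, rose in 5 comparisons, by 0.059 to 0.20, and was lower in all 7 after the correction. The collagen gene COL1A1 and 3 other fibroblast and pericyte markers had a summed level of 4749 and 4757 CPM in vehicle, 6221 and 6265 with E2, 5173 and 5254 with ketamine, 6096 and 6122 with 2R6R-HNK, 4853 and 5267 with 2S6S-HNK, 6183 and 6466 with E2+ketamine, 5281 and 5412 with E2+2R6R-HNK and 4541 and 4260.1 with E2+2S6S-HNK. Whether these marker levels had a part in the values of SERPINH1 was not tested.

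Of 4 subunits of the TRiC chaperonin, 3 or 4 were lower in each comparison and none was higher. TCP1 was at 189 and 188 CPM in vehicle, 115 and 119 with E2, 118 and 117 with ketamine, 108 and 105 with 2R6R-HNK, 95 and 94.7 with 2S6S-HNK, 88.9 and 86.8 with E2+ketamine, 90.3 and 92.6 with E2+2R6R-HNK and 112 and 113 with E2+2S6S-HNK. Its treated libraries lay between 86.8 and 119 CPM, below vehicle throughout. It fell, with log2 fold changes from -0.68 with ketamine to -1.10 with E2+ketamine (SE 0.031 to 0.032, largest edgeR adjusted p 1.48e-24). CCT3 was at 433 and 438 CPM in vehicle, 419 and 418 with E2, 349.6 and 347 with ketamine, 435 and 441 with 2R6R-HNK, 354 and 366 with 2S6S-HNK, 426 and 420.3 with E2+ketamine, 342 and 334 with E2+2R6R-HNK and 321 and 321 with E2+2S6S-HNK. It overlapped with vehicle with 2R6R-HNK, where it did not pass, and it did not pass with E2+ketamine (edgeR adjusted p = 0.105). The fall of CCT3 with E2 (-0.058 ± 0.023 (SE), edgeR adjusted p = 0.0293) was lost when either E2 or either vehicle library was left out (-0.052 to -0.066), was 0.006 with upper-quartile normalization, and turned to 0.067 after the GC correction, as the value with E2+ketamine turned to 0.17. CCT2 and CCT5 fell in each comparison, with log2 fold changes from -0.42 to -0.91 and from -0.57 to -0.98. After the GC correction CCT2 did not pass with E2 or 2R6R-HNK. CCT5 shares 1734 bp of exon with a long noncoding RNA on the other strand.

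The 2 heat shock factors lay on opposite sides of vehicle in 6 of 7 comparisons as counted, HSF1 above and HSF2 below, and HSF1 turned below after the GC correction. HSF1, the main activator of the heat shock response, was at 78.2 and 76.9 CPM in vehicle, 98 and 103 with E2, 87.7 and 89.1 with ketamine, 102 and 104 with 2R6R-HNK, 109 and 114 with 2S6S-HNK, 119 and 128 with E2+ketamine, 112 and 115 with E2+2R6R-HNK and 95.4 and 86.8 with E2+2S6S-HNK. All treated libraries were above vehicle. Its log2 fold changes were 0.37 with E2, 0.19 with ketamine, 0.41 with 2R6R-HNK, 0.53 with 2S6S-HNK, 0.67 with E2+ketamine, 0.55 with E2+2R6R-HNK and 0.23 with E2+2S6S-HNK (SE 0.039, largest edgeR adjusted p 3.46e-05), but after the GC correction all 7 values were negative, between -0.051 and -0.24. HSF1 has the highest exon GC content of the 45 genes, 65.4%. HSF2, a related factor active in development, was at 11.3 and 11.5 CPM in vehicle, 6.73 and 7.34 with E2, 8.56 and 9.82 with ketamine, 7.79 and 8.88 with 2R6R-HNK, 9.98 and 9.47 with 2S6S-HNK, 7.01 and 6.40 with E2+ketamine, 9 and 9.48 with E2+2R6R-HNK and 12.5 and 13.2 with E2+2S6S-HNK. It was lower in 6 comparisons, from -0.23 with 2S6S-HNK to -0.76 with E2+ketamine, and was at 0.18 ± 0.086 (SE) with E2+2S6S-HNK (edgeR adjusted p = 0.0752), where both libraries were above vehicle. The fall with ketamine did not pass without ketamine replicate 1 (-0.21, edgeR adjusted p = 0.0897), and that with 2S6S-HNK did not pass without 2S6S-HNK replicate 2 or either vehicle library (-0.19 to -0.24). Once corrected for GC content, HSF2 was lower only with E2 and higher with 2S6S-HNK, E2+2R6R-HNK and E2+2S6S-HNK. Levels of HSF1 RNA say nothing of the activity of the protein.

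The changes went with the GC content of the exons. GC content ran from 35.7% in CHORDC1 to 65.4% in HSF1, with a median of 44.2% in the 45 genes and 48.7% over the 15349 tested genes with a value. Across the 45 genes, the log2 fold change correlated with GC content at a Spearman rho of 0.407 (E2+2S6S-HNK) to 0.808 (2R6R-HNK), and across all 15349 genes at 0.444 to 0.771. Genes of a library are not independent points, so these are descriptions, and whether the relation comes from the libraries or the cells was not tested. The counts were also fitted with an offset for each library that removes its trend with GC content and exon length, which would also take out any true change tied to GC content. With it the rho over the 45 genes lay between -0.196 and 0.043.

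After the correction 35, 37, 34, 39, 35, 41 and 39 of the 45 genes were lower with E2, ketamine, 2R6R-HNK, 2S6S-HNK, E2+ketamine, E2+2R6R-HNK and E2+2S6S-HNK. The shares of all genes lower were 22.7%, 31.0%, 25.2%, 31.4%, 28.2%, 33.5% and 34.0%. Genes that were higher numbered 2, 3, 4, 3, 5, 3 and 4, against 15.4%, 17.8%, 20.3%, 25.3%, 24%, 25.8% and 22.5% of all genes. The median log2 fold change of the 45 genes lay between -0.48 with E2+2R6R-HNK and -0.26 with E2, against -0.051 to -0.014 for all genes. HSP90AA1 was still lower, at -0.89 with E2 and -1.26 with ketamine. CHORDC1 lay between -0.63 and -1.09 and HSPA8 between -0.56 and -1.08.

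**Figure D4:**
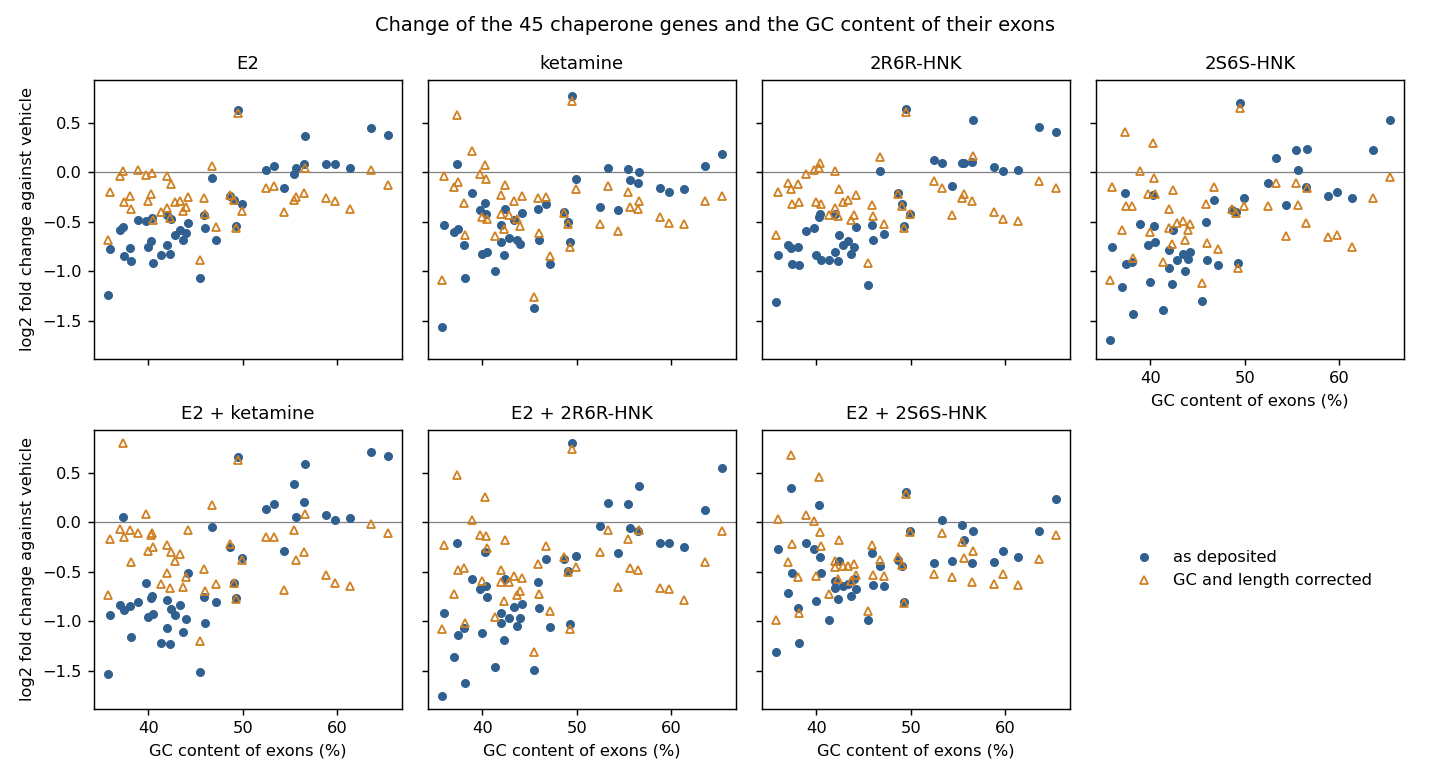
Log2 fold change against vehicle of the 45 genes (vertical) by the GC content of their exons in percent (horizontal), 1 panel for each treatment, with filled points as deposited and open triangles after the GC and length correction. The points rise from left to right in each panel, the triangles do not, and most triangles stay below 0.

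Ketamine and its metabolites were compared at the same dose and time. The HNK compounds differ from ketamine by a hydroxyl group on the ring and the loss of the methyl group on the nitrogen, and they are mirror images of each other. In each set of 3 pairs, p-values were also adjusted over the 3 pairs together. No gene of the 45 reached a log2 difference of 1 in any of the 6 pairs, where 0.844%, 1.77% and 2.53% of all genes did without E2 (2R6R-HNK against ketamine, 2S6S-HNK against ketamine, 2S6S-HNK against 2R6R-HNK) and 3.09%, 5.62% and 0.662% did with E2. Without E2, 2R6R-HNK against ketamine gave 21 genes higher and 16 lower (22.6% and 22.8% of all genes tested), 2S6S-HNK against ketamine 10 higher and 25 lower (24.2% and 22.0%), and 2S6S-HNK against 2R6R-HNK 6 higher and 30 lower (22.4% and 21.0%). After the GC correction 24 genes were higher and 7 rather than 16 lower with 2R6R-HNK than with ketamine (24.2% and 14.6% of all genes so corrected). Over the 3 pairs together, 37, 35 and 36 of the 45 genes passed as counted (45.4%, 46.0% and 43.7% of all genes).

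Between the mirror-image HNK compounds, most genes that differed were lower with 2S6S-HNK. DNAJA1 differed by -0.50 (95% interval -0.56 to -0.43, edgeR adjusted p over the 3 pairs = 2.88e-18), HSPH1 by -0.49 (95% interval -0.59 to -0.39, edgeR adjusted p over the 3 pairs = 5.07e-12) and BAG2 by -0.43 (95% interval -0.54 to -0.32, edgeR adjusted p over the 3 pairs = 8.93e-09). CHORDC1 and HSPA8 differed by -0.38 (95% interval -0.50 to -0.26) and -0.37 (95% interval -0.41 to -0.33), both lower with 2S6S-HNK. DNAJB9 was higher with 2S6S-HNK, by 0.56 (95% interval 0.33 to 0.78, edgeR adjusted p over the 3 pairs = 4.83e-05). For CRYAB and DNAJB4 the difference did not pass, at 0.065 (95% interval -0.12 to 0.25) and 0.009 (95% interval -0.14 to 0.16), which does not show that they were alike.

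Against ketamine, 2R6R-HNK differed in both directions. SERPINH1 was higher with 2R6R-HNK by 0.53 (95% interval 0.48 to 0.58, edgeR adjusted p over the 3 pairs = 9.12e-25), FKBP4 by 0.47 (95% interval 0.42 to 0.53, edgeR adjusted p over the 3 pairs = 1.26e-20) and HSPB1 by 0.40 (95% interval 0.34 to 0.45, edgeR adjusted p over the 3 pairs = 2.05e-17). DNAJB9 was lower, at -0.85 (95% interval -1.06 to -0.63, edgeR adjusted p over the 3 pairs = 2.93e-09). HSP90AA1 was higher by 0.24 (95% interval 0.19 to 0.28) with 2R6R-HNK and by 0.069 (95% interval 0.025 to 0.11) with 2S6S-HNK. BAG2 was lower with 2S6S-HNK than with ketamine, at -0.56 (95% interval -0.67 to -0.45, edgeR adjusted p over the 3 pairs = 3.18e-12), as was DNAJA1 at -0.39 (95% interval -0.46 to -0.33). For HSPA1A, 2S6S-HNK and ketamine differed by 0.000 (95% interval -0.055 to 0.055). After the GC correction HSPB1 differed by 0.20 between 2R6R-HNK and ketamine, and between 2S6S-HNK and ketamine HSP90AA1 differed by 0.14, DNAJA1 by -0.26 and HSPA1A by -0.13 (edgeR adjusted p = 1.48e-06).

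With E2 present, most genes that differed between the HNK compounds were higher with 2S6S-HNK. Whether the difference between the compounds changed with E2 was not tested. 2S6S-HNK against 2R6R-HNK, both with E2, gave 29 genes higher and 14 lower (25.0% and 29.1% of all genes). 2S6S-HNK against ketamine gave 26 higher and 16 lower (35.0% and 31.7%), and 2R6R-HNK against ketamine 7 higher and 23 lower (26.7% and 25.3%). With the GC correction, 23 genes were higher and 5 lower with 2S6S-HNK than with 2R6R-HNK (28 rather than 43 in all), where 12.1% and 17.5% of all genes so corrected were, and 15 rather than 26 were higher with 2S6S-HNK than with ketamine (25.0%). Over the 3 pairs together 43, 40 and 30 of the 45 genes passed as counted (54.3%, 66.1% and 52.7% of all genes). DNAJA1 now was higher with 2S6S-HNK than with 2R6R-HNK by 0.48 (95% interval 0.42 to 0.54, edgeR adjusted p over the 3 pairs = 1.65e-18), BAG2 by 0.65 (95% interval 0.54 to 0.76, edgeR adjusted p over the 3 pairs = 1.4e-14) and HSPA13 by 0.64 (95% interval 0.56 to 0.73, edgeR adjusted p over the 3 pairs = 5.48e-18). HSP90AA1 and CHORDC1 were higher by 0.50 (95% interval 0.45 to 0.54) and 0.44 (95% interval 0.33 to 0.56). CRYAB was lower, at -0.50 (95% interval -0.69 to -0.32, edgeR adjusted p over the 3 pairs = 3.29e-06), as was SERPINH1 at -0.45 (95% interval -0.49 to -0.40). As counted, the largest difference of the 6 pairs was that of HSF2, higher with 2S6S-HNK than with ketamine by 0.94 (95% interval 0.75 to 1.12, edgeR adjusted p over the 3 pairs = 1.16e-12), followed by that of DNAJB9 between 2R6R-HNK and ketamine without E2. HSPB1 was lower with 2S6S-HNK than with ketamine, at -0.80 (95% interval -0.85 to -0.74, edgeR adjusted p over the 3 pairs = 1.12e-29). The GC correction brought most of these values nearer to 0. Between the HNK compounds with E2, DNAJA1 was then at 0.23, BAG2 at 0.32, HSPA13 at 0.26 and SERPINH1 at -0.21, and CHORDC1 did not pass (0.093, edgeR adjusted p = 0.224). Against ketamine, HSF2 was at 0.58 and HSPB1 at -0.35.

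**Figure D5:**
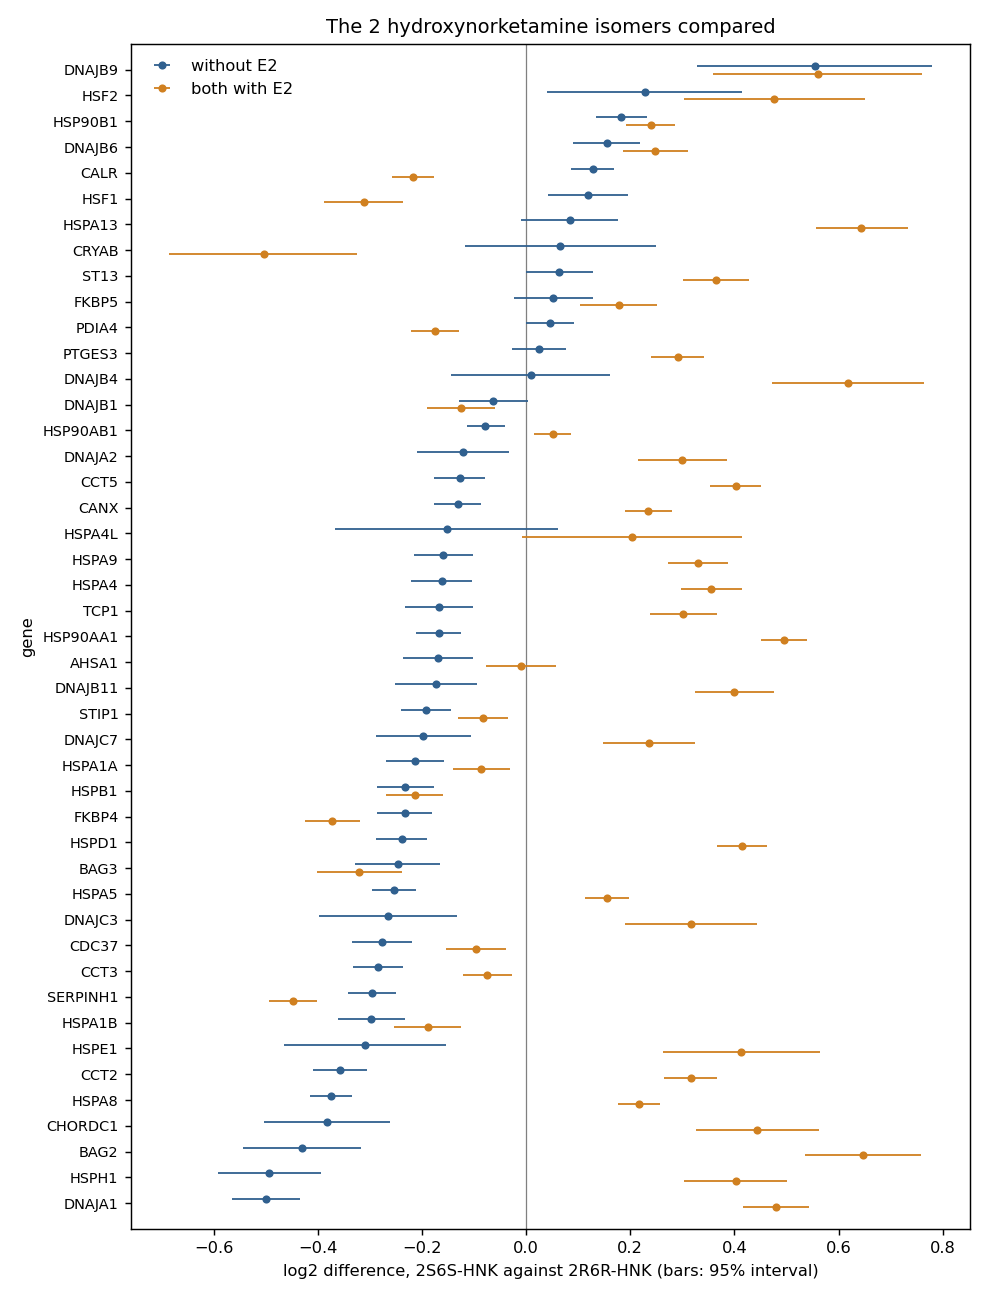
Log2 difference of 2S6S-HNK against 2R6R-HNK (horizontal) for each of the 45 genes (vertical, ordered by the value without E2), with blue for the pair without E2, orange for the pair with E2, and bars for the 95% interval. DNAJA1, HSPH1, BAG2 and CHORDC1 lie left of 0 without E2 and right of 0 with E2.

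The libraries with E2 and a drug were also set against those with the drug alone. E2+2R6R-HNK against 2R6R-HNK gave 34 genes lower and 6 higher (23.8% and 24.2% of all genes), with a median of -0.20. HSPH1 fell, at -0.69 ± 0.049 (SE) (edgeR adjusted p = 5.04e-17), as did BAG2 at -0.63 ± 0.056 (SE) and DNAJA1 at -0.58 ± 0.032 (SE). E2+2S6S-HNK against 2S6S-HNK gave 28 higher and 14 lower (24.1% and 27.2% of all genes), with a median of 0.19. DNAJB9 rose by 0.55 ± 0.10 (SE) (edgeR adjusted p = 9.23e-06), HSPA13 by 0.48 ± 0.044 (SE) and DNAJA1 by 0.40 ± 0.032 (SE). E2+ketamine against ketamine gave 24 lower and 14 higher (30.2% and 27.3% of all genes), with ST13 at -0.60 and HSPB1 at 0.65. With the GC correction, 13 rather than 24 genes were lower with E2 added to ketamine (17.5% of all genes so corrected), and 6 rather than 14 with E2 added to 2S6S-HNK (19.8%). The corrected values were -0.33 for ST13 and 0.27 for HSPB1 with E2 added to ketamine. With E2 added to 2S6S-HNK they were 0.27 for DNAJB9, 0.18 for HSPA13 and 0.18 for DNAJA1.

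Subtracting a drug's effect without E2 from its effect with E2 gives the interaction, and the 2 vehicle libraries enter all 3 interactions. For ketamine 36 of 45 genes had a positive interaction and 1 (CRYAB) a negative one (24.5% and 13.1% of all genes). For 2R6R-HNK 28 were positive and 11 negative (31.5% and 25.2%), and for 2S6S-HNK 32 were positive and 13 negative (32.9% and 32.2%). In all, 37, 39 and 45 genes passed, against 37.5%, 56.6% and 65.1% of all genes. Negative interactions after the GC correction numbered 2 with ketamine and 4 with 2S6S-HNK (11.7% and 20.6% of all genes). A positive value here means that E2 and the drug together lowered a gene less than the sum of their separate log2 falls, for a gene that fell with each. HSP90AA1, at -1.07 with E2 and -1.30 with 2S6S-HNK, stood at -0.99 with both, an interaction of 1.38 ± 0.031 (SE) (edgeR adjusted p = 1.4e-36). The interaction of CHORDC1 was 1.62 ± 0.081 (SE) with 2S6S-HNK and 1.26 ± 0.081 (SE) with ketamine, of which the former was 0.79 after the GC correction. An interaction of at least 1 in size was found for 1 gene with ketamine (1.82% of all genes), 2 with 2R6R-HNK (5.68%) and 14 with 2S6S-HNK (10.7%), and after the GC correction for 1, 0 and 1 (1.57%, 3.25% and 1.69%).

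To see whether other chaperone genes moved alike, 95 further genes in 8 lists were counted, of which 93 were in the table and 89 were tested. They were lower and higher in 45 and 28 cases with E2, 45 and 20 with ketamine, 39 and 29 with 2R6R-HNK, 43 and 29 with 2S6S-HNK, 41 and 33 with E2+ketamine, 45 and 28 with E2+2R6R-HNK, and 47 and 17 with E2+2S6S-HNK. These are 43.8% to 52.8% of the 89 lower and 19.1% to 37.1% higher, where 32.5% to 37.4% of all genes were lower and 24% to 34.3% higher. Whether the 89 differed from the 45 was not tested, and all values of the 89 here and below are as counted, without the GC correction. Their medians lay between -0.18 and -0.037. The remaining TRiC and prefoldin subunits had 6 to 8 of 11 lower in each comparison and 0 to 2 higher. CCT8 among them fell in all 7, at -0.54 to -1.26, and VBP1, a prefoldin subunit, at -0.62 to -1.23. The other HSP70 family and exchange factors had 4 to 6 of 11 lower and 2 to 5 higher, with BAG5 lower by up to -0.93 and STUB1 (the ubiquitin ligase CHIP) higher by up to 0.81, both with E2+ketamine.

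The 22 other J-domain proteins had 10 to 13 lower and 4 to 8 higher, with DNAJC13 and DNAJC9 at -1.10 and -1.07 at their furthest. The 12 other HSP90 family members and cochaperones had 3 to 7 lower and 3 to 6 higher, with SUGT1 and CDC37L1 lower by up to -1.25 and -1.02. The 19 other genes of endoplasmic reticulum folding and the unfolded protein response had 9 or 10 lower and 4 to 9 higher, with SEL1L at -0.98 and PDIA5 at 1.07. The 6 other mitochondrial chaperones and proteases had 3 or 4 lower and 2 or 3 higher, among them the partners CLPX, lower by up to -1.14, and CLPP, higher by up to 0.87. Of 5 other genes listed with the small heat shock proteins, 1 or 2 were lower and 0 to 2 higher, with HSPB11, whose place there rests on the list alone, lower by up to -0.90. Of 3 other heat shock factors and regulators, 1 was lower in each comparison (HSBP1, at -0.17 to -0.36) and 0 or 1 higher.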

How the data were processed

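RNA from the 16 libraries was sequenced by the study as 100-base read pairs after Ovation RNA-seq v2 amplification. The authors aligned the reads to hg19 with TopHat2 2.0.14 and Bowtie2 2.2.6 and counted uniquely mapped pairs with featureCounts 1.4.6, with versions as the submitters' processing notes list them (the study's methods give other versions of both aligners), and deposited raw counts per gene of the UCSC hg19 models. The strand setting is not given in the sources used here. From the deposited counts, CPM and TMM factors were computed with edgeR 4.0.16 in R 4.3.3, and filterByExpr left 16004 of 25370 genes. One quasi-likelihood fit of 8 group means with 8 residual degrees of freedom gave all comparisons, with Benjamini-Hochberg adjustment over all genes tested in each, and a threshold of 0.05. Exon GC content and length came from GENCODE v44lift37, and the GC and length correction removed a loess trend (span 0.5) from each library. The script was tested on simulated data: of 200 genes changed between ketamine and vehicle, 99% were recovered by edgeR, with 11 false calls.

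The members and lists were chosen with earlier results of these data known. Values in every library are given, by a rule, for members that passed with a log2 fold change or interaction of at least 1, the 12 members with the largest log2 fold change, the member with the highest mean CPM in each role, and HSF1 and HSF2. Of the other lists, up to 2 genes each with the largest change at a mean CPM of at least 5 are named. Further genes, and the examples in each comparison, were chosen after their values were seen. Alternatives were DESeq2 1.42.0, other normalizations and filters, the GC and length correction, a replicate block, halved counts, fits of only the groups compared, and leaving out each library. Depth was 55300614 to 81646165 counts per library. Reads carried no molecular identifiers, so intervals cover the spread between libraries only.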

Additional observations from a re-analysis of the deposited data

Results flagged for a closer look

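Interactions between E2 and a drug were singled out because the effect of the drug differed between cells with and without E2 by a test of the difference itself (edgeR, adjusted over all genes tested). The number of the 45 genes with such a difference was 37 for ketamine, 39 for 2R6R-HNK and 45 for 2S6S-HNK, against 37.5%, 56.6% and 65.1% of all genes tested. Values of at least 1 in size on the log2 scale were held by 1.82%, 5.68% and 10.7% of all genes tested. Of the 45, they were found for CHORDC1 with ketamine (1.26). With 2R6R-HNK they were found for HSP90B1 (1.05) and DNAJB9 (1.10). With 2S6S-HNK they were found for the cytosolic genes HSP90AA1 (1.38), CHORDC1 (1.62), HSPA4 (1.04), HSPH1 (1.10), BAG2 (1.03), DNAJA1 (1.24), DNAJB4 (1.25) and CRYAB (-1.03). The mitochondrial HSPD1 (1.19) was among them, as were HSP90B1 (1.11), HSPA13 (1.25), DNAJB9 (1.11) and DNAJC3 (1.06) of the endoplasmic reticulum and the factor HSF2 (1.10). After the GC and length correction HSP90AA1 (1.10) was the 1 of these 14 genes with 2S6S-HNK that kept a size of at least 1, and 0 of the 2 with 2R6R-HNK did. The 2 vehicle libraries enter every interaction, and a difference from vehicle shared by E2, the drug and both together gives an interaction of opposite sign. These values therefore do not separate a drug effect that depends on E2 from such a shared difference.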

How the results depend on the processing

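Under DESeq2 and under the replicate block, all 67 counts of members stayed within 1.5 times the value reported. DESeq2 left 193 of 199 single values the same, with 4 weaker and 2 stronger. Same-numbered libraries showed no shared deviation, with correlations between -0.0258 and 0.0451 over 28 pairs of groups (mean -6.37e-05). These values cannot tell whether the libraries were paired in culture or processing. The replicate block changed 1 of 199 single values. Leaving out 1 library changed 26 of 3184 single values, given with the genes. It moved the genes with a negative interaction of E2 and ketamine from 1 to between 1 and 2, and the genes with an interaction of E2 and 2R6R-HNK of at least 1 from 2 to between 1 and 2, with 1 without 2R6R-HNK replicate 2.

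The GC and length correction moved most, alone and together with the replicate block. The counts were the same with and without the block except for the interaction of E2 and 2R6R-HNK. There 33 and 32 genes passed and 22 and 21 were positive. Shares of all genes so corrected are not given for these calls, so they cannot be set apart from a shift of all genes. Members higher than vehicle went to 2 with E2, 4 with 2R6R-HNK, 3 with 2S6S-HNK, 5 with E2+ketamine and 3 with E2+2R6R-HNK. Members lower by at least 1 went to 0 with E2, 0 with 2R6R-HNK, 2 with 2S6S-HNK, 1 with E2+ketamine, 4 with E2+2R6R-HNK and 0 with E2+2S6S-HNK. Members lower with 2R6R-HNK than with ketamine went to 7. With E2, those higher with 2S6S-HNK than with ketamine went to 15, and those passing and lower with 2S6S-HNK against 2R6R-HNK to 28 and 5. Members lower with E2 added to ketamine went to 13, and those passing and lower with E2 added to 2S6S-HNK to 26 and 6. The share of all genes so corrected is not given for the 26. Interactions that were negative went to 2 with ketamine and 4 with 2S6S-HNK, and those of at least 1 to 0 with 2R6R-HNK and 1 with 2S6S-HNK.

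Among the genes with values given in every library, signs turned by the correction, as log2 fold changes in the order of treatments used above, with the value under the correction and replicate block second where it differed, were as follows. HSPB1 was at -0.292 with ketamine, -0.088 with 2R6R-HNK, -0.256 with 2S6S-HNK, -0.02 and -0.021 with E2+ketamine and -0.395 with E2+2R6R-HNK. CALR was at -0.2 with ketamine, -0.262 with 2R6R-HNK, -0.105 with 2S6S-HNK, -0.077 with E2+ketamine and -0.163 with E2+2R6R-HNK. HSF1 was at -0.128 and -0.129 with E2, -0.237 with ketamine, -0.162 and -0.161 with 2R6R-HNK, -0.051 with 2S6S-HNK, -0.105 with E2+ketamine, -0.091 and -0.092 with E2+2R6R-HNK and -0.123 with E2+2S6S-HNK. HSF2 was at 0.077 and 0.075 with ketamine, 0.044 and 0.046 with 2R6R-HNK, 0.295 with 2S6S-HNK and 0.256 and 0.255 with E2+2R6R-HNK. DNAJB9 was at 0.008 with E2, 0.41 with 2S6S-HNK and 0.474 and 0.475 with E2+2R6R-HNK. HSPA13 was at 0.03 and 0.031 with E2+2S6S-HNK, and CCT3 at 0.067 with E2 and 0.173 with E2+ketamine.

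Upper-quartile normalization raised the median of all genes by 0.061 to 0.105. Members higher than vehicle went to 12 with E2, 6 with ketamine and 6 with E2+2S6S-HNK. Those lower by at least 1 with E2+2R6R-HNK went to 8, and those higher with 2R6R-HNK than with ketamine, both with E2, to 11. Shares of all genes under this normalization and the settings below are not given, so these counts cannot be set apart from a shift of all genes. Negative interactions with ketamine went to 2, and those of at least 1 with 2R6R-HNK to 1. Among the genes with values given in every library, signs turned for DNAJB6 (0.016) and HSPB1 (0.02) with E2+2S6S-HNK, for CALR with E2 (0.051) and E2+2S6S-HNK (0.078), and for CCT3 with E2 (0.006). With DESeq2 size factors in edgeR, 5 members were higher with ketamine. With only the groups compared, 5 were higher with ketamine and 5 with E2+2S6S-HNK. Under these 2 settings, at least 10 counts in every library, halved counts and no filter, 2 interactions with ketamine were negative. Apart from the corrections' own construction, the causes were not tested.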
